A study of Danio rerio with 6 samples.

Results

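The genes described here repair broken or crosslinked DNA by recombination and halt the cell cycle while damage lasts. They are 32 zebrafish genes chosen by name, of the 32520 genes in the deposited tables. Of the 32, 31 matched a symbol letter for letter, and xrcc2 is listed in capitals. Bulk RNA sequencing was done on pooled embryos (Danio rerio) aged 3 days post fertilization. There were 3 pools of bcas2 knockout (bcas2-KO) embryos and 3 pools of wild-type (WT) embryos, with 10 embryos in each pool. The sources used here do not name the knockout allele, the parents or the clutches of the pools. The gene bcas2 codes for a subunit of the Prp19 complex, a part of the spliceosome.

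When both strands of DNA break, the Mre11, Rad50 and Nbn proteins trim the ends, replication protein A (RPA) coats the exposed single strand, and Brca2 with its partners prepares that strand for exchange with a matching sequence. The Fanconi pathway unhooks crosslinks between the strands: a core complex of several Fanc proteins attaches ubiquitin to the pair Fancd2 and Fanci, and recombination then completes the repair. The kinases Atm and Atr sense breaks and RPA-coated DNA, mark the histone H2ax beside the damage, and activate Chek2 and Chek1. In human cells the Prp19 complex also binds RPA on damaged DNA, and zebrafish that lack brca2 or fancl develop as males.

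Gene counts summed to between 32822716 and 40462653 in the bcas2-KO pools and to between 35560010 and 49526995 in the WT pools. The targeted gene bcas2 was low in every bcas2-KO pool, at 3.54, 3.09 and 4.49 CPM (counts scaled to library size), and high in every WT pool, at 29.4, 27.9 and 27.4 CPM. Markers of muscle (actc1b), neurons (elavl3), skin (krt4) and embryonic red cells (hbbe1.1) were present in all 6 pools. Of 13 embryo markers, 5 fell, 0 rose and 8 did not pass, while over all tested genes 9.01% fell and 10.6% rose. Of those 8, crybb1, opn1sw1 and he1.1 varied widely between pools (SE of the log2 fold change 2.86, 2.65 and 1.84). The red cell gene hbbe1.1 (log2 fold change -1.04) and the neutrophil gene mpx (-1.15) stayed called with any 1 pool left out (hbbe1.1 was not called in the 4 pools with few lens transcripts, at an edgeR adjusted p of 0.0868), whereas hbae1.1, myl7 and krt4 did not (largest edgeR adjusted p 0.141, 0.131 and 0.0960). The part of these markers in the results was not tested. Lens transcripts were abundant in 1 pool of each genotype: crybb1 had 73.1 CPM in bcas2-KO pool 3 and 71.6 CPM in WT pool 1, and at most 0.449 CPM in the other 4 pools. The eye gene opn1sw1 had 22.1 CPM in bcas2-KO pool 3 and 27.7 CPM in WT pool 1, and at most 0.389 CPM in the other 4 pools. The pools thus differed in eye transcripts, and whether they hold the same parts of the embryo was not tested. The hatching gland gene he1.1 had 39.6 CPM in WT pool 2 and at most 6.52 CPM elsewhere. In pooled embryos, fewer cells of a type and less RNA per cell cannot be told apart.

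Most of the 32 genes had low transcript levels. Per length of transcript, rpa1, the large RPA subunit, was the most abundant, at 57.2 ± 2.42 FPKM (fragments per kilobase of transcript, scaled to library size) in bcas2-KO and 61.2 ± 1.57 FPKM in WT (SD, n = 3 pools each). In WT it was followed by h2ax (57.0 ± 10.3 FPKM), which did not differ from it beyond the spread, and by rpa2 (35.5 ± 0.483) and rpa3 (17.8 ± 1.70 FPKM). The other 28 genes lay under 10 FPKM on average in WT, from the checkpoint kinase gene chek1 (10.4 ± 0.555 FPKM in bcas2-KO, 9.81 ± 1.82 FPKM in WT) down to xrcc2 (0.681 ± 0.175 FPKM in bcas2-KO, 0.893 ± 0.132 FPKM in WT). Of the 31 neighbouring pairs in the WT order, 21 had means that differed by less than the larger SD of the pair. Ranked by FPKM, fancg took place 11 of 32 in bcas2-KO and place 27 in WT, while rad51d took place 27 in bcas2-KO and place 15 in WT. Counts of a member in a library ranged from 15 (xrcc2) to 3345 (rpa1), and all 32 passed the filter on low counts.

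**Figure D1:**
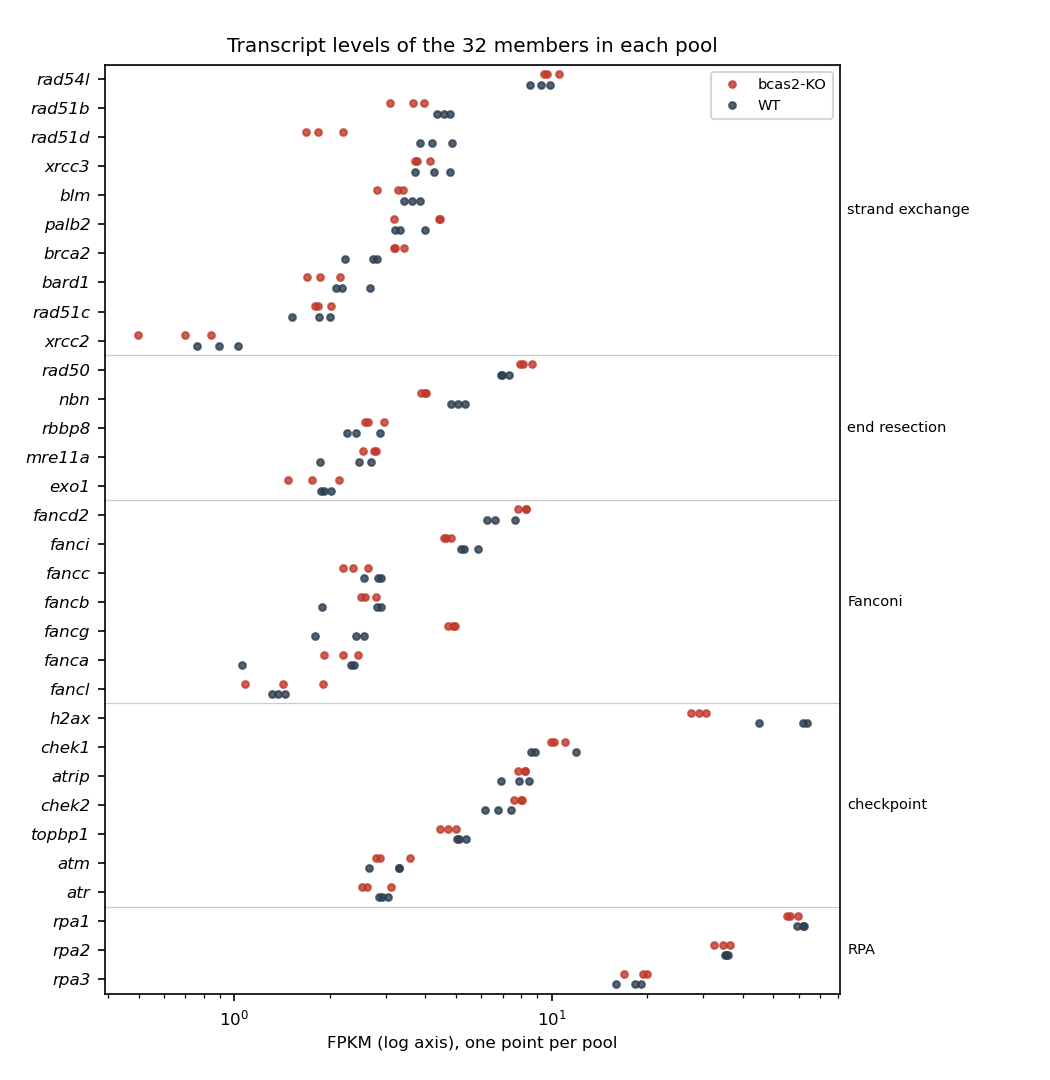
Transcript levels in FPKM (log axis) of the 32 genes, with 1 point per pool and the bcas2-KO points above the WT points of the same gene. The RPA genes and h2ax lie to the right of most others, and fancg, rad51d and h2ax have bcas2-KO points set well apart from their WT points.

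Few of these genes were called different between the genotypes, and not passing does not show that the level of a gene was the same. In bcas2-KO, fancg rose, h2ax, rad51d and nbn fell, and 28 of 32 did not pass at an adjusted p of 0.05. These 4 called genes are 12.5% of the 32, against 19.6% of all 22347 tested genes (10.6% higher and 9.01% lower). Whether the share in the 32 genes differs from that in all genes was not tested. With upper-quartile scaling the calls over all genes split into 39.9% higher, against 54.1% in the fit reported here, and the same 4 members were called. All bcas2-KO pools lay to one side of all WT pools in 10 of the 32 genes (by CPM), 5 higher and 5 lower in bcas2-KO, and this was so in 39.4% of all tested genes. The median log2 fold change, bcas2-KO over WT, was 0.04 over the 32 genes (-0.02 with upper-quartile scaling) and -0.02 over all tested genes, and the mean over the 32 genes was -0.03. The median size of the change, without its sign, was 0.19 for the 32 genes and 0.24 for all.

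The subgroups had 1 called gene each, apart from RPA with none, and the one of end resection (nbn) was lost whichever pool was left out. Among 10 genes of strand exchange, 0 rose, 1 fell and 9 did not pass (median log2 fold change -0.15). Among 5 genes of end resection, 0 rose, 1 fell and 4 did not pass (median 0.12). Together these 15 recombination genes had a median of -0.10. Among 7 Fanconi genes, 1 rose, 0 fell and 6 did not pass (median 0.11). Among 7 checkpoint genes, 0 rose, 1 fell and 6 did not pass (median 0.01, or -0.05 with upper-quartile scaling). The 3 RPA genes did not pass (median -0.03). These medians moved with the libraries used: without WT pool 2 the Fanconi median was -0.09, and without bcas2-KO pool 2 the checkpoint median was -0.11 and the RPA median 0.02.

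**Figure D2:**
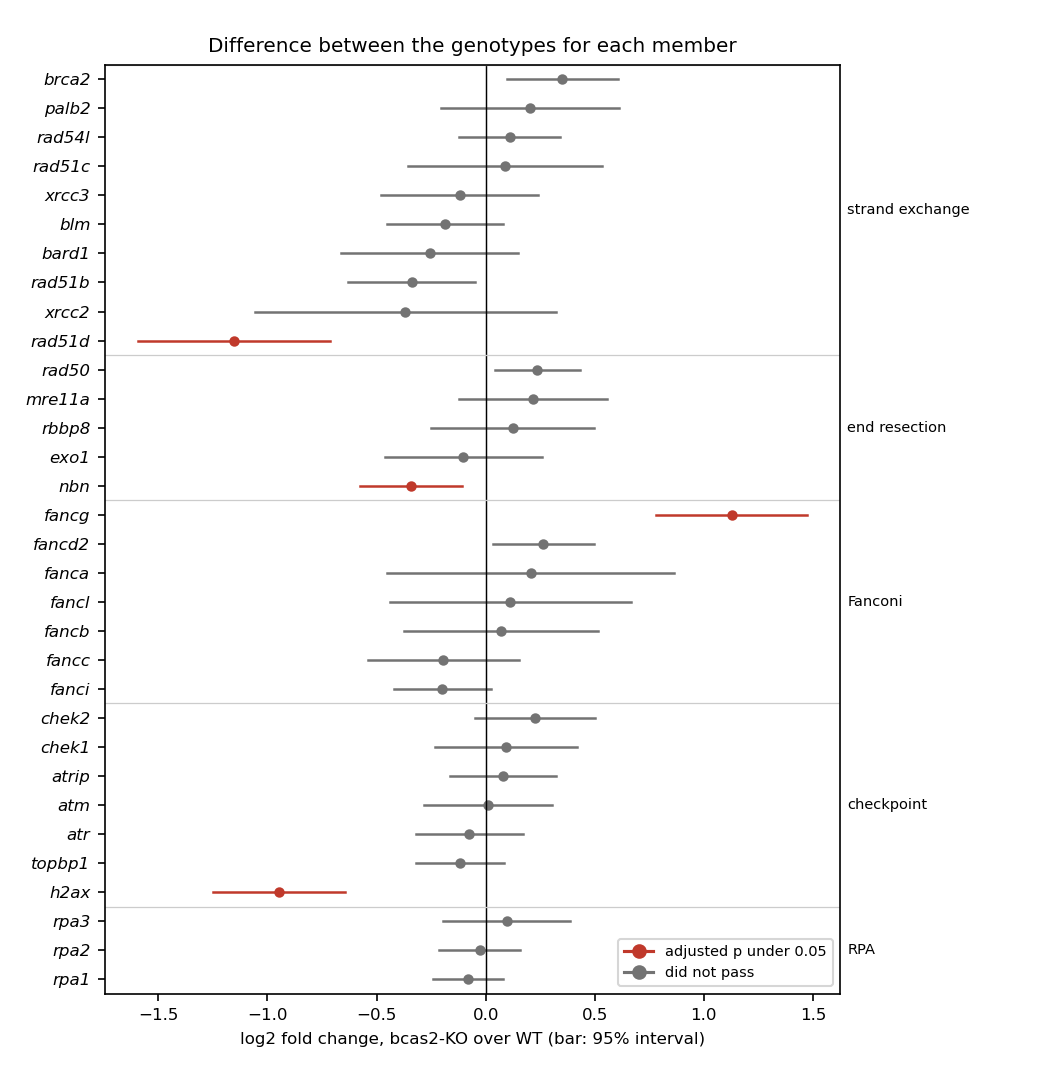
Log2 fold change of each gene, bcas2-KO over WT, by subgroup, with bars for the 95% interval derived from the edgeR fit. The 4 called genes (fancg at 1.13, h2ax at -0.95, rad51d at -1.15 and nbn at -0.34) are in red, and the intervals of most others include 0.

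The Fanconi core gene fancg, which codes for an adaptor that joins other core subunits, had the highest fold change of the 32. It had 6.49, 6.26 and 6.61 CPM in the bcas2-KO pools against 2.39, 3.16 and 3.35 CPM in the WT pools. Every bcas2-KO pool lay well above every WT pool, and WT pool 1 was the lowest. This was 2.18-fold higher in bcas2-KO, with a log2 fold change of 1.13 (SE 0.15, edgeR adjusted p = 0.00157), and the call was kept whichever pool was left out (largest adjusted p = 0.0146). The genes on either side of fancg, eef2l2 and vcp, had log2 fold changes of 0.05 and 0.14 and did not pass.

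The other Fanconi members did not pass. The ubiquitinated pair had fold changes of opposite sign: fancd2 had 17.5, 18.6 and 18.7 CPM in bcas2-KO pools against 17.2, 14.5 and 13.8 CPM in WT (log2 fold change 0.26, SE 0.10, edgeR adjusted p = 0.103). Its partner fanci had 9.84, 9.33 and 9.54 CPM in bcas2-KO pools against 10.6, 10.6 and 11.8 CPM in WT (log2 fold change -0.20, SE 0.10, edgeR adjusted p = 0.188). In both genes the pools of the genotypes did not overlap, but neither difference passed, and fancd2 was called without WT pool 1 (adjusted p = 0.0248). The ubiquitin ligase subunit gene fancl had 0.993, 1.76 and 1.32 CPM in bcas2-KO and 1.21, 1.24 and 1.32 CPM in WT. The core genes fanca, fancb and fancc had log2 fold changes of 0.21, 0.07 and -0.19, each with a 95% interval that includes 0. In WT pool 2, fanca (2.02 CPM, against 4.62 and 4.46 CPM in the other WT pools) and fancb (2.02 CPM, against 3.15 and 3.02 CPM) were low together, and without that pool both fold changes were negative (-0.09 and -0.11).

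Among the strand exchange genes, rad51d, whose product works together with Rad51b, Rad51c and Xrcc2, had the lowest fold change of the 32. Its counts were 45, 58 and 39 in the bcas2-KO pools against 140, 105 and 104 in the WT pools, which corresponds to 1.24 ± 0.176 CPM in bcas2-KO and 2.77 ± 0.326 CPM in WT (SD, n = 3 pools each). The genotypes were clearly separated, and the level was 2.23-fold lower in bcas2-KO (log2 fold change -1.15, SE 0.20, edgeR adjusted p = 0.00431, largest adjusted p 0.0274 with 1 pool left out). In the RefSeq gene order of the assembly GRCz12tu, rad51d overlaps lig3, which codes for DNA ligase 3. That neighbour rose: lig3 had 59.1, 59.3 and 56.3 CPM in bcas2-KO pools against 40.0, 36.1 and 30.2 CPM in WT (log2 fold change 0.71, SE 0.10, edgeR adjusted p = 0.0020). Thus the overlapping pair moved in opposite directions, from levels that differ greatly. The overlap is one of whole gene spans, and exons were not compared. No source used here states whether counting used strand, so any reads from a shared stretch cannot be assigned. Whether such reads enter the value of rad51d was not tested.

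The partners of rad51d did not pass. The gene rad51b had 5.35, 5.79 and 4.55 CPM in bcas2-KO pools against 7.01, 6.26 and 6.61 CPM in WT (log2 fold change -0.34, SE 0.13, edgeR adjusted p = 0.0969). All its bcas2-KO pools lay below all WT pools. The gene rad51c had 1.57, 1.61 and 1.78 CPM in bcas2-KO and 1.63, 1.31 and 1.74 CPM in WT, which overlap. The least abundant partner, xrcc2, had 0.630, 0.371 and 0.523 CPM in bcas2-KO and 0.568, 0.750 and 0.658 CPM in WT. Its 95% interval ran from 2.08-fold lower to 1.25-fold higher in bcas2-KO, so a change of 2-fold lower lies within its error at this depth, while the 2.23-fold of rad51d lies just outside it. The gene xrcc3, whose product pairs with Rad51c, had a log2 fold change of -0.12 (SE 0.16).

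The strand exchange gene brca2 narrowly missed the threshold. It had 14.2, 13.4 and 13.4 CPM in the bcas2-KO pools against 11.4, 9.14 and 11.6 CPM in the WT pools. The bcas2-KO pools were close together and all above the WT pools, of which pool 2 was the lowest. The log2 fold change was 0.35 (SE 0.11, edgeR adjusted p = 0.0562), and DESeq2 called it (adjusted p = 0.0489), as did edgeR without WT pool 1 (0.0468). Over the fits with 1 pool left out the adjusted p ranged up to 0.184. Its partner palb2, which in human cells joins BRCA2 to BRCA1, had a log2 fold change of 0.20 (SE 0.18), and bard1, in human cells the ubiquitin ligase partner of BRCA1, had -0.26 (SE 0.18). The motor gene rad54l, which acts when a strand invades the duplex, was at 11.6 ± 0.680 CPM in bcas2-KO and 10.8 ± 0.869 CPM in WT, and blm, a helicase that separates joined molecules, at 7.47 ± 0.769 CPM in bcas2-KO and 8.49 ± 0.559 CPM in WT (SD, n = 3 pools each).

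**Figure D3:**
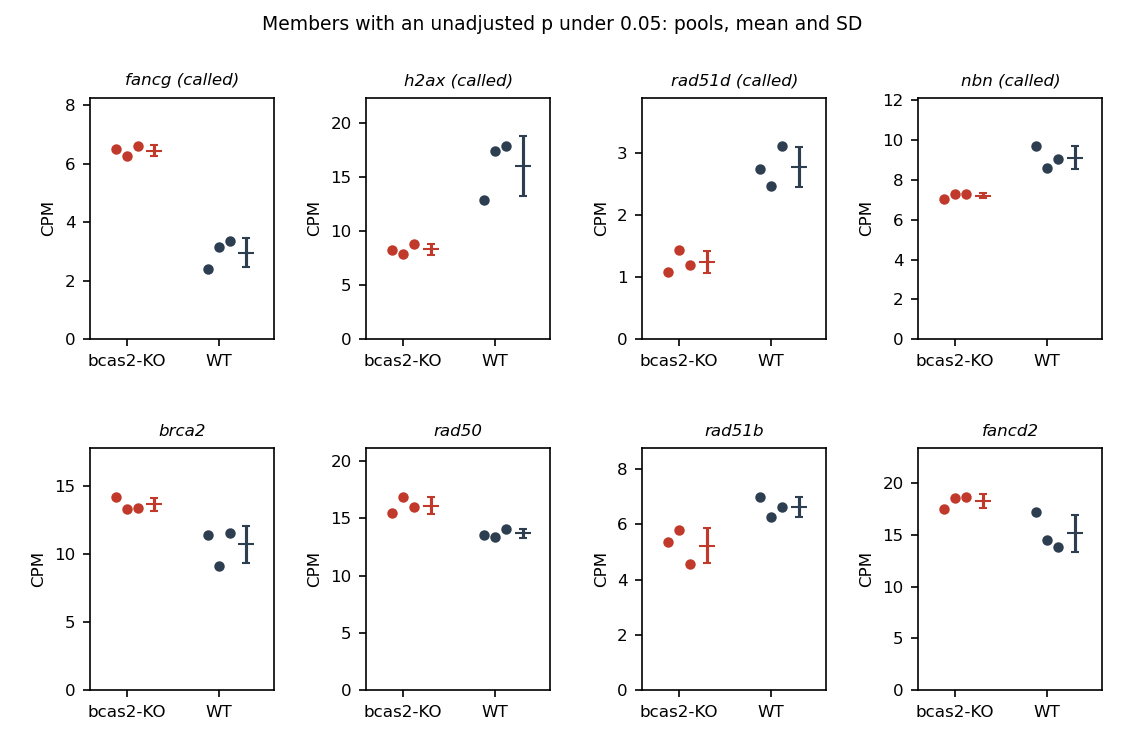
CPM of the 8 genes with an unadjusted p under 0.05, with 1 point per pool and the mean with its SD beside the points, bcas2-KO on the left of each panel. The genotypes do not overlap in any of the 8, as in 39.4% of all tested genes. The 8 were picked by p in these same pools, so the lack of overlap is no further support. The gap relative to the level is larger in fancg, h2ax and rad51d than in the other 5.

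In the complex that binds broken ends, nbn, whose product recruits the kinase Atm, was lower in bcas2-KO. It had 7.05, 7.27 and 7.29 CPM in the bcas2-KO pools against 9.71, 8.60 and 9.06 CPM in the WT pools, with no overlap and little spread within bcas2-KO. The fold was 1.27 lower (log2 fold change -0.34, SE 0.10, edgeR adjusted p = 0.0466). This call was lost whichever pool was left out (adjusted p from 0.0951 to 0.150) and with DESeq2 (0.0603), while the fold change kept its sign and lay between -0.38 and -0.29 with 1 pool left out. The RefSeq gene order places nbn in overlap with osgin2, which had a log2 fold change of -0.60 and did not pass (edgeR adjusted p = 0.279), so reads of that pair carry the same limit as those of rad51d.

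The partner gene rad50, whose product tethers the ends, had 15.5, 16.9 and 16.0 CPM in bcas2-KO pools against 13.5, 13.4 and 14.1 CPM in WT. All bcas2-KO pools were above all WT pools, at a log2 fold change of 0.24 (SE 0.09) that did not pass (edgeR adjusted p = 0.0855). The nuclease gene mre11a had 7.53, 6.85 and 7.48 CPM in bcas2-KO and 7.30, 4.95 and 6.55 CPM in WT, which overlap. The resection cofactor gene rbbp8 and the nuclease gene exo1 had log2 fold changes of 0.12 (SE 0.17) and -0.10 (SE 0.16).

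Ratios between partners of one complex do not depend on how libraries are scaled. Of 26 FPKM ratios within 8 complexes or pairs, 9 (34.6%) did not overlap between the genotypes. Among single genes, 39.4% of all tested genes did not overlap (by CPM), and no share was computed for ratios of other genes. The ratio of rad50 to nbn was 2.08 ± 0.0709 in bcas2-KO and 1.40 ± 0.0862 in WT, 1.49-fold higher in bcas2-KO, while that of mre11a to rad50 was 0.328 ± 0.0309 in bcas2-KO and 0.331 ± 0.0614 in WT (SD, n = 3 pools each). The ratio of rad51c to rad51d was 2.39-fold higher in bcas2-KO (1.00 ± 0.148 in bcas2-KO, 0.415 ± 0.0221 in WT; SD, n = 3 pools each). The ratio of fancd2 to fanci was 1.62, 1.82 and 1.79 in bcas2-KO against 1.49, 1.25 and 1.07 in WT. In each of these 3 shifted ratios the bcas2-KO pools lay above all WT pools. The 3 were picked from the 9 ratios without overlap, so this is no further support, and the side depends on which gene is divided. The ratios with nbn and rad51d also reuse the values of those called genes. The ratio of rpa1 to rpa2 kept a narrow range, from 1.63 to 1.71 in bcas2-KO and from 1.65 to 1.76 in WT. An exact two-sided permutation test of 3 pools against 3 cannot go below p = 0.1, which the 9 ratios reached (0.289 after Benjamini-Hochberg adjustment over the 26), so the ratios are a description.

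**Figure D4:**
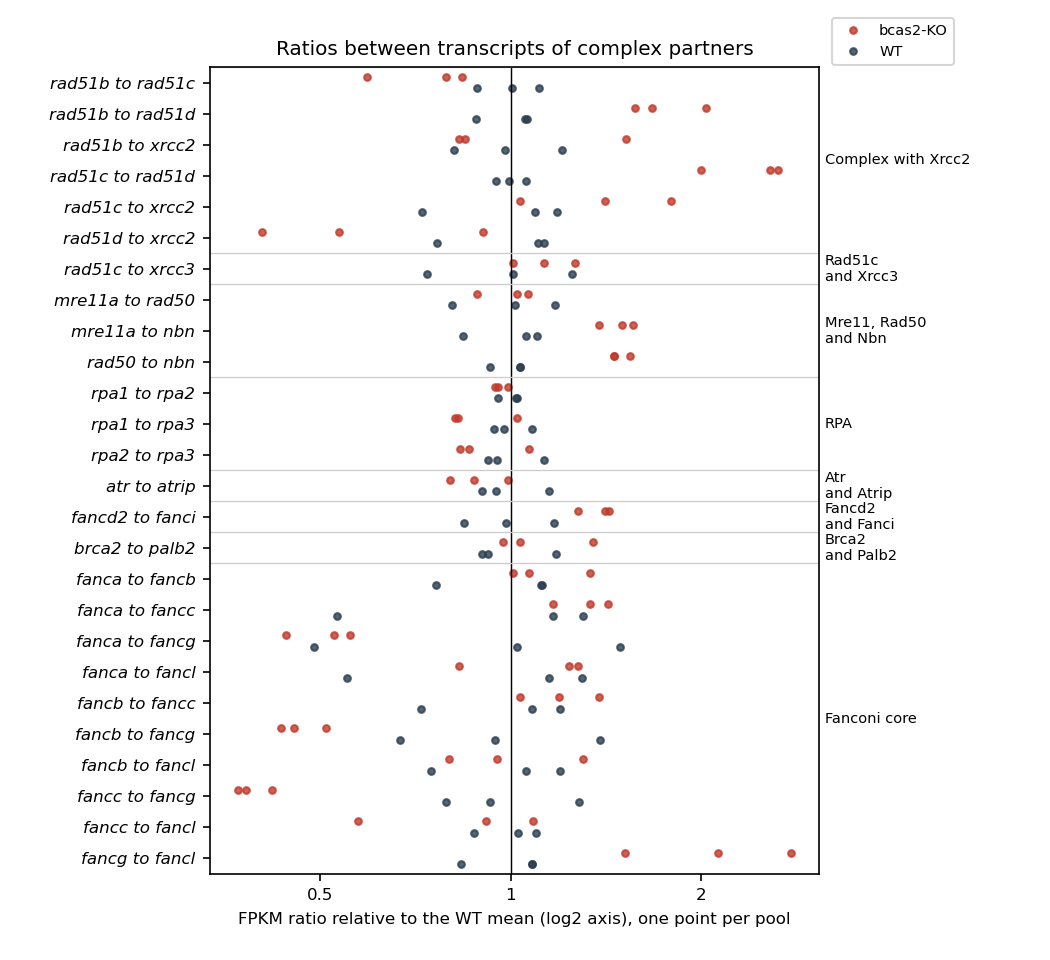
FPKM ratios between transcripts of partner proteins, divided by the WT mean of each ratio (log2 axis), with 1 point per pool and bcas2-KO above WT. Ratios with nbn, rad51d or fancg account for 7 of the 9 that do not overlap between the genotypes; the other two are rad51b to rad51c and fancd2 to fanci.

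Of the checkpoint genes, the histone gene h2ax was the one called. Its product is the H2A variant that Atm and Atr phosphorylate around a break. It had 8.28, 7.84 and 8.80 CPM in the bcas2-KO pools against 12.9, 17.4 and 17.9 CPM in the WT pools. The lowest WT pool, pool 1, was still above every bcas2-KO pool. The level was 1.93-fold lower in bcas2-KO, with a log2 fold change of -0.95 (SE 0.14, edgeR adjusted p = 0.0020, largest adjusted p 0.0169 with 1 pool left out). In the 4 pools with few lens transcripts it was -1.12 (adjusted p = 0.00184). The related gene h2ax1, chosen after its values were seen, had 115, 133 and 120 CPM in bcas2-KO pools against 147, 157 and 136 CPM in WT, with a log2 fold change of -0.26 that did not pass (edgeR adjusted p = 0.0619, from 0.0453 without WT pool 3 to 0.223 without bcas2-KO pool 1). As counted, h2ax1 was the more abundant, at 147 ± 10.7 CPM in WT against 16.0 ± 2.76 CPM for h2ax (SD, n = 3 pools each). The 1.93-fold of h2ax therefore does not describe both genes together. No source used here states how reads matching several histone genes were counted, so the split between these genes is uncertain. The RefSeq gene order also places h2ax in overlap with c2cd2l, which had a log2 fold change of 0.13. This neighbour did not pass (edgeR adjusted p = 0.360), and reads of the pair carry the same limit as those of rad51d. In that gene order, the spans of 12 members overlap a protein-coding gene, and whether shared reads enter their values was not tested.

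Among the 17 tested genes with a histone symbol, h2ax included and picked by a name pattern after values were seen, 7 fell, 2 rose and 8 did not pass, so 52.9% were called against 19.6% of all tested genes. The pattern matched 58 genes, and those not among the 17 had too few counts to be tested. The largest falls were those of hist2h3c (log2 fold change -3.52) and of a gene named hist1h2a3 (-2.85). Both were low in bcas2-KO, at 0.562 and 0.154 CPM. The linker histone genes h1-10 and histh1l had log2 fold changes of -1.35 and -1.18. The genes h3f3c (0.79) and 1 of the 2 genes named h3f3b.1 (0.50), which code for the replacement variant H3.3, rose, but the call of this h3f3b.1 gene was lost without WT pool 2 (edgeR adjusted p = 0.0527).

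Transcripts of the damage kinases and their partners did not pass. For atm the log2 fold change was 0.01 (SE 0.13), with 95% bounds of 0.823 and 1.23 on the fold of bcas2-KO over WT. For atr, the kinase that answers to RPA-coated DNA, it was -0.07 (SE 0.11), and for its partner atrip 0.08 (SE 0.11). The Atr activator gene topbp1 was at 15.2 ± 0.886 CPM in bcas2-KO and 16.5 ± 0.758 CPM in WT. The kinase gene chek1 was at 8.29 ± 0.436 CPM in bcas2-KO and 7.75 ± 1.52 CPM in WT, and the kinase gene chek2 at 6.51 ± 0.220 CPM in bcas2-KO and 5.57 ± 0.566 CPM in WT (SD, n = 3 pools each). The pools of chek2 did not overlap between the genotypes, at an edgeR adjusted p of 0.227.

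The RPA genes rpa1 and rpa2 had the smallest SE of the 32 fold changes (0.07 and 0.08). The fold of bcas2-KO over WT had 95% bounds of 0.847 and 1.06 for rpa1, of 0.862 and 1.12 for rpa2 and of 0.873 and 1.31 for rpa3. In CPM, rpa1 had 61.9, 60.9 and 66.4 in bcas2-KO and 65.5, 67.4 and 67.1 in WT, and the other two also overlapped between the genotypes. Over the 28 genes that did not pass, the 95% bounds excluded a change of 1.5-fold in either direction for 21 and of 2-fold for 27, with xrcc2 as the exception to the last.

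By the RefSeq gene order the 32 genes lie on 18 chromosomes. The called genes fancg, h2ax and rad51d share a chromosome with chek2, so 3 of the 4 members there were called. They do not neighbour each other: 261 protein-coding genes lie between fancg and h2ax, and 300 between rad51d and fancg. Of the 1007 tested genes placed on that chromosome, 21.5% were called. On the chromosome of bcas2 itself, fancc is the member present, with 471 protein-coding genes between them.

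A wider list of 139 other repair and checkpoint symbols matched 129 genes, of which 126 were tested. In bcas2-KO 21 rose, 8 fell and 97 did not pass, so 23.0% were called against 19.6% of all tested genes, with a median log2 fold change of 0.04. Without WT pool 2, 11 rose and 0 fell, and without bcas2-KO pool 1, 12 rose and 0 fell. Of the 29 called genes, 9 kept the call in every fit with 1 pool left out. The counts by pathway thus rest mostly on calls that depend on the pools used. By pathway, 6 of 34 other recombination genes rose and 0 fell. In excision and mismatch repair 7 of 28 rose and 1 fell, the highest median of the 6 lists (0.15). In damage tolerance 2 of 15 rose and 3 fell, among other Fanconi genes 2 of 14 rose and 1 fell, among other checkpoint genes 3 of 20 rose and 1 fell, and in end joining 1 of 15 rose and 2 fell.

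The 10 called genes of that list with the smallest p all rose. The mismatch repair genes mlh3 and pms2 were 3.15-fold and 2.04-fold higher: mlh3 had 10.3, 9.87 and 8.06 CPM in bcas2-KO pools against 3.13, 2.86 and 2.99 CPM in WT. The gene slx4, a scaffold for nucleases that cut crosslinks and joint molecules, had 34.4, 31.2 and 28.8 CPM in bcas2-KO pools against 13.6, 13.7 and 12.1 CPM in WT (log2 fold change 1.26, SE 0.10, edgeR adjusted p = 0.0001). A second gene named slx4, at 0.599 CPM in bcas2-KO and 0.315 CPM in WT, did not pass. The translesion polymerase gene rev1 was 2.33-fold higher, and fan1, a nuclease that FANCD2 recruits in human cells, 2.03-fold. The others were rif1 (1.62-fold), which protects ends from resection, lig3 (1.64-fold), the deubiquitinase gene bap1 (1.44-fold), rad52 (2.04-fold), whose product anneals single strands, and timeless (1.35-fold), which protects replication forks. The calls of rad52 and timeless were lost without WT pool 2 (edgeR adjusted p = 0.0505 and 0.0568).

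Mean levels of those 10 risers ran from 4.76 CPM (rad52) to 58.2 CPM (lig3) in bcas2-KO. Their pools did not overlap between the genotypes, as in 39.4% of all tested genes. Because the 10 were picked by small p in these same pools, the lack of overlap is no further support. The Fanconi core gene fancf, chosen after its values were seen, fell, with 0.799, 0.866 and 0.585 CPM in bcas2-KO pools against 1.29, 1.88 and 1.88 CPM in WT (log2 fold change -1.15, SE 0.26, edgeR adjusted p = 0.0143), and was not called without WT pool 2 (0.0652) or without bcas2-KO pool 1 (0.0522) or pool 3 (0.0526).

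**Figure D5:**
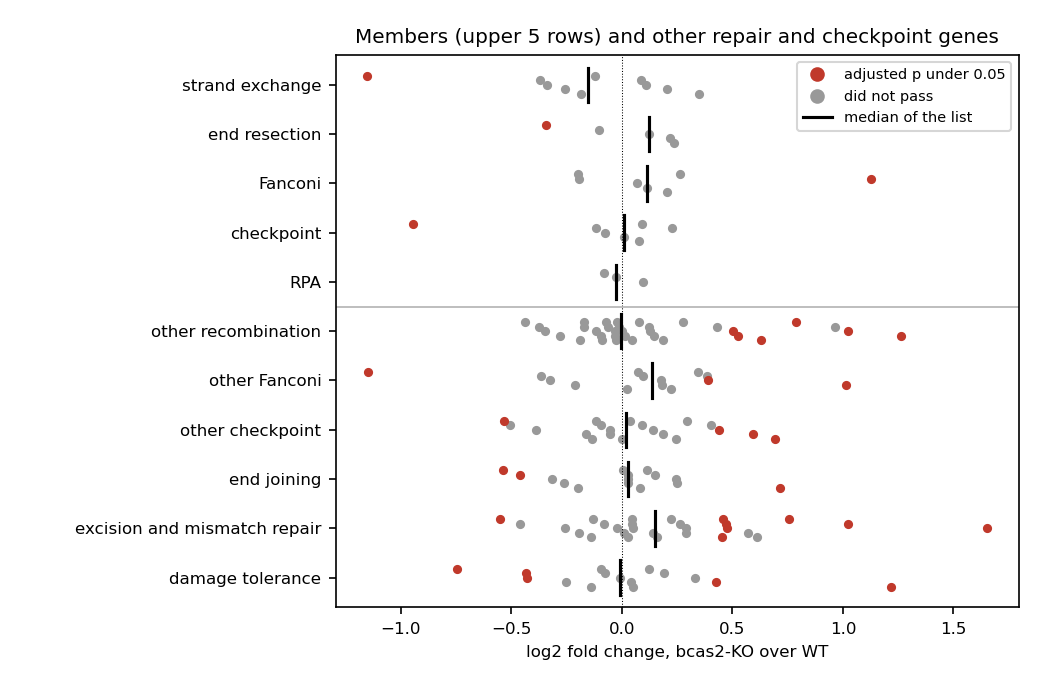
Log2 fold change, bcas2-KO over WT, of the 32 genes by subgroup (upper 5 rows) and of 126 other repair and checkpoint genes by pathway, with called genes in red and a bar at each median. Called genes of the wider list lie mostly to the right, with mlh3 (1.65) farthest, while the medians of all 11 rows lie between -0.15 and 0.15.

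Many repair genes are transcribed mainly in dividing cells, so a list of S phase and mitosis genes was read beside them. Of 40 such genes, 5 fell, 1 rose and 34 did not pass, so 15.0% were called against 19.6% of all tested genes (median log2 fold change -0.05). The sliding clamp gene pcna fell, with 164, 166 and 169 CPM in bcas2-KO pools against 213, 227 and 229 CPM in WT (log2 fold change -0.42, SE 0.07, edgeR adjusted p = 0.0042). Of the nucleotide supply genes in the list, dut (-0.40), tyms (-0.38) and both genes named rrm2 (-0.35 and -0.34) fell, while rrm1 (-0.01) and tk1 (-0.11) did not pass (edgeR adjusted p = 0.958 and 0.413), and the mitotic cyclin gene ccnb1 (0.38) rose. Calls lost with 1 pool left out were those of tyms, both rrm2 genes and ccnb1 (largest adjusted p from 0.0650 to 0.143). The summed level of the 40 genes was 1893, 1985 and 2057 CPM in the bcas2-KO pools against 2212, 2098 and 2001 CPM in the WT pools, which overlap. The part of these genes in the changes of h2ax, rad51d, nbn and fancg was not tested.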

How the data were processed

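Per the labels' protocols, RNA of pooled embryos was extracted with TRIzol, and libraries made with a NEBNext Ultra kit were read as pairs of 150 bases on a HiSeq. The submitters' processing notes name the build GRCz11 and the tools DESeq2 1.22.1, featureCounts 1.6.0, cutadapt 1.15, StringTie 1.3.3b and STAR 2.6.1a, with no roles. The authors deposited raw counts per Ensembl gene and a second table of FPKM values. Count over FPKM was constant within a gene after 1 factor per library (largest coefficient of variation 0.0223% over 7169 genes). Columns were matched to samples by the labels.

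Genes were kept with filterByExpr (minimum count 10), scaled by TMM and tested with the quasi-likelihood test of edgeR 4.0.16 in R 4.3.3 (two-sided, robust dispersions, no covariate beside genotype), with Benjamini-Hochberg adjustment over all 22347 genes and calls at 0.05. CPM were computed from the counts and TMM factors. The test was tested on simulated data first. Fold changes are from the fit, fold ratios from mean CPM. The SE is the size of the log2 fold change over the square root of the F statistic of the test. Intervals are at 95%, from this SE and a t quantile. A floor of 3 counts is 0.0587 to 0.0923 CPM. The labels' protocols name no molecular identifiers, so the floors cover counting error only, while the intervals are derived from the fit. Libraries within a genotype differed beyond sampling noise (chi-square per degree of freedom 13.4 to 36.3). The labels call the pools biological replicates but do not state clutches, so p-values measure the spread between these pools. Alternatives were other scalings, other filters, DESeq2 1.42.0, a replicate block and libraries left out. Gene order came from RefSeq (GRCz12tu), which is not the build of the counts, so no coordinates are given.

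The members and the lists were chosen with earlier results of these data known. All members could be named, with each pool's values for called ones, and of each other list the 10 called genes with the smallest p at most. Genes outside this rule are marked or stand as neighbours, partners or markers.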

Additional observations from a re-analysis of the deposited data

How the results depend on the processing

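The calls of fancg, h2ax and rad51d kept their direction and stayed past the threshold under all 14 alternatives, and no called member changed sign. The call of nbn was lost under 11 of the 14. For the 32 members, 1 higher and 3 lower calls became 2 higher without a filter, with DESeq2 and with the replicate block, and 1 to 3 higher with 1 library left out. End resection had 0 called genes (against 1) with library totals, without a filter, with DESeq2, with the replicate block, in the 4 libraries with few eye transcripts and with any library left out. Strand exchange had 2 called genes (against 1) without a filter, with DESeq2 and with the replicate block, and 1 to 2 with 1 library left out, while Fanconi had 1 to 2. In the 4 libraries with few eye transcripts the medians were 0.232 (Fanconi), 0.124 (checkpoint), 0.245 (end resection) and 0.0880 (all members). With upper-quartile factors they were -0.0892 (RPA) and -0.0203 (all members). With 1 library left out, medians ranged from -0.0898 to 0.302 (Fanconi), -0.0699 to 0.0184 (RPA), -0.107 to 0.0772 (checkpoint), 0.0454 to 0.236 (end resection) and -0.0336 to 0.0629 (all members). Over all genes, left-out libraries gave 1013 to 2813 higher and 717 to 2358 lower calls, against 2369 and 2013, and upper-quartile factors gave 1746 higher and 2625 lower, 39.9% higher against 54.1%. In the wider list they gave 11 to 25 higher and 0 to 5 lower calls, and 5 lower with library totals and 3 lower in the 4 libraries with few eye transcripts. The causes were not tested.

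The deviations of same-numbered libraries correlated at -0.143, 0.375 and 0.0134, and those of differently numbered libraries at -0.338 to 0.290. With 3 libraries per genotype these values cannot settle whether replicate numbers pair the libraries. With the replicate block the adjusted p was 0.0436 for brca2 and 0.0314 for h2ax1, both then called, and 0.0582 for nbn, which was then not called.

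The interval of xrcc2 was the widest of the 32 (-1.06 to 0.32 on the log2 scale), at 15 to 32 counts per library.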
